A study of Caenorhabditis elegans with 2 samples.

Results

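Aminoacyl-tRNA synthetases are the enzymes that join each amino acid to its tRNA, and the genes examined here are those of Caenorhabditis elegans. They were taken as all protein-coding genes of the WBcel235 annotation whose name is 1 letter followed by ars- and a number, where the letter is the code of the amino acid. The rule gave 32 of 19973 nuclear protein-coding genes and covered all 20 amino acids. The assay was chromatin immunoprecipitation followed by sequencing (ChIP-seq), which maps where a protein sits on the genome, and the protein was the forkhead transcription factor UNC-130 fused to GFP. Chromatin came from whole hermaphrodites of strain AGK541 at the young adult stage, 56 hours on from starved L1 larvae, and an anti-GFP antibody pulled down the fusion protein. The strain carries the transgene armSi1, in which the promoter of the germline gene mex-5 drives UNC-130::GFP with the tbb-2 3′ UTR beside cb-unc-119(+), on chromosome II. It also carries unc-119(ed3) on chromosome III and niDf199 on chromosome IV. Both samples of the series, biological replicates 1 and 2, belong to this 1 group. Nothing was compared with it, so the values below describe where the signal of the tagged protein lay and how far the replicates gave the same order. The tissues that expressed the fusion protein were not measured here, and whole worms mix germline and somatic nuclei.

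Synthetases fall into 2 structural classes with unrelated catalytic domains, and cells need a charging enzyme for the cytosol and for mitochondria, where a separate gene or an alternative product of the same gene serves. Every dividing or growing cell uses these enzymes, and a germline that fills oocytes with protein is a heavy user of translation. In mammals, uncharged tRNAs activate the kinase GCN2, and the factor ATF4 then raises transcription of many synthetase genes. Forkhead factors bind DNA through a winged-helix domain, for which TAAACA is a common core string.

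Lists of candidate regions, with weak background regions left in, were deposited by the authors for replicate 1 (21622 regions), replicate 2 (20625) and both pooled (22106). A final list holds 1168 optimal peaks, and regions were assigned to genes on the ce11 build. Each region has a signal value on the scale of the authors' peak caller. It is used here to rank regions within a list, except where a threshold from the ce10 list is applied to the ce11 list. For every gene the region of highest signal was taken among those with a summit in the promoter window, which reached 1000 bp upstream and 200 bp downstream of each annotated transcript start. A percentile below is the share of genes with such a region in the same list whose value is no higher. Library depth is unknown, since region lists carry no reads, and the 95% Wilson intervals cover counting error over genes only.

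Sequences at selected regions are given first, each 30 bases of the WBcel235 genome read 5′ to 3′ on the strand of the gene. The hars-1 region is shown for the string it holds and not for strength. Its pooled rank was 4653, and its summit lay nearer to the start of the neighbouring gene T11G6.2. The stronger regions of yars-2, kars-1 and vars-1 hold none of the strings searched and are not printed. At ears-2, the gene with the strongest region, the stretch is centred on the summit and holds none of the strings searched. At mars-1 and fars-3, next in order of signal, and at hars-1, the stretch is centred on a string found within 100 bp of the summit, which is in capitals: the forkhead core TAAACA (or its reverse complement) in mars-1 and fars-3, and the reverse complement of TGATGNAA, a form of the element bound by ATF4 in mammals, in hars-1.
ears-2, chrIV:390472-390501, minus strand: cggcgcattgcgaatgactgcgcggtgact
mars-1, chrIV:11635818-11635847, minus strand: caatagcaaagaTAAACAaaaaatacttga
fars-3, chrII:8464494-8464523, plus strand: aaataaatttatTGTTTAacttttaaaaaa
hars-1, chrIV:10858396-10858425, plus strand: attttatcactTTTCATCAaactgaatcaa

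Most synthetase genes had a candidate region at the promoter, but few of these regions were strong. In the pooled list 26 of 32 synthetase genes had one, 81.2% (Wilson interval 64.7–91.1), while 36.4% of all nuclear protein-coding genes did. A candidate in at least 1 of the 3 lists was present at 29 genes, 90.6% (75.8–96.8), beside 48.9% of all genes. In the single replicates the counts were 25 in replicate 1 and 24 in replicate 2, beside 34.9% and 34.2% of all genes, and 22 genes had a candidate in both, 68.8% (51.4–82), beside 22.7% of all genes. An optimal peak was present at 2 synthetase genes, ears-2 and mars-1, 6.25% (1.73–20.1), and at 5.29% of all genes, so that count lay near the background. Among genes with a pooled candidate the 2 were 7.69% of 26 (2.14–24.1), beside 14.5% of 7272 genes. Among the 1168 regions of highest signal in replicate 1 were those of 4 synthetase genes (ears-2, mars-1, fars-3 and yars-2), 12.5% (4.97–28.1), beside 5.11% of all genes. Among the best 1168 of replicate 2 were those of ears-2 and fars-3, 6.25%, beside 5.22% of all genes. The upper 584 optimal peaks held 1, ears-2, beside 2.92% of all genes. These are counts beside a background, with no test of the list, and genes are not replicates of a condition.

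**Figure D1:**
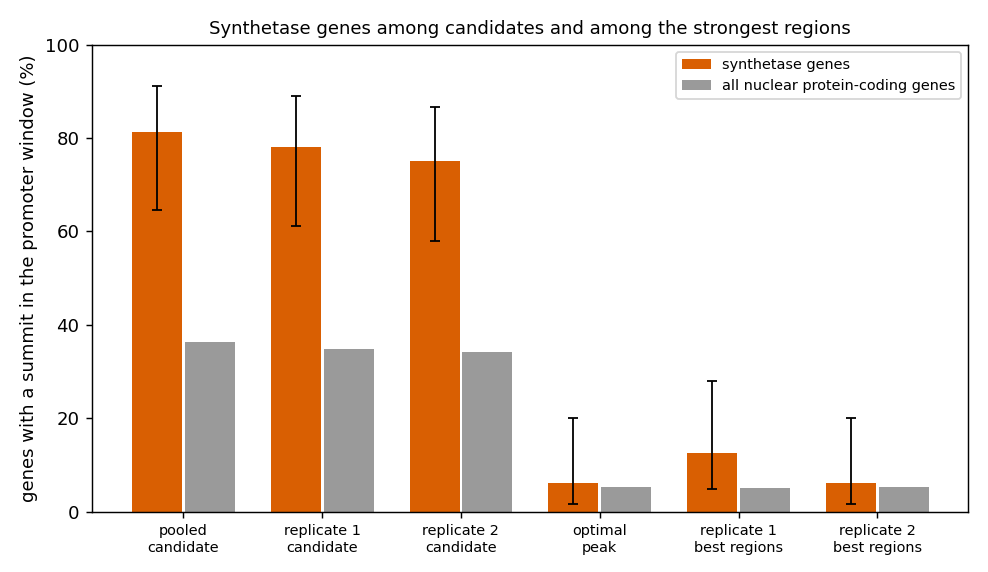
Share of synthetase genes (left bars, n = 32, with 95% Wilson intervals) and of all nuclear protein-coding genes (right bars, n = 19973) with a region summit in the promoter window, for 6 region sets; "best regions" are the 1168 of highest signal in a replicate. The synthetase bars stand at 75% or more for candidates and at 12.5% or less for the optimal and best regions.

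Chromosome and the number of annotated starts moved with the share of genes that had a candidate, and their part in the synthetase count was not tested. No synthetase gene lies on chromosome X, where 24.3% of all genes had a pooled candidate, and the share over autosomal genes was 38.3%. Genes with more than 1 annotated start have more promoter sequence searched, and 51.8% of them had a pooled candidate, beside 30.9% of genes with 1 start. More than 1 start was annotated at 17 of 32 synthetase genes, beside 5250 of all 19973 genes, so such genes were more common in the family. A candidate was present at 14 of the 17, 82.4%, and at 12 of the 15 with 1 start, 80%. By chromosome, candidates were found at all 5 synthetase genes of II, beside 37.5% of all genes there, at all 4 of V, beside 26%, and at 7 of 8 on IV, beside 38.5%. They were found at 6 of 9 on I, beside 49.7% of all genes, and at 4 of 6 on III, beside 50.3%. The synthetase share was thus lower on I and III, where the share over all genes was higher, with 9 genes or fewer per chromosome.

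The strength of the candidates at synthetase genes was close to that of candidates at other genes. Their median pooled signal was 22.8 (quartiles 18.9 and 38.1, n = 26), and the median over all genes with a candidate was 21.4 (quartiles 15.4 and 36.5, n = 7272). The median percentile of the synthetase genes was 54.2 in the pooled list, 58.8 in replicate 1 and 60.3 in replicate 2, and 15 of 26 lay above the median gene, 57.7% (38.9–74.5), beside 50% of all genes by construction. The range was wide, with percentiles of 3.05 for fars-1 and 99.2 for ears-2.

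**Figure D2:**
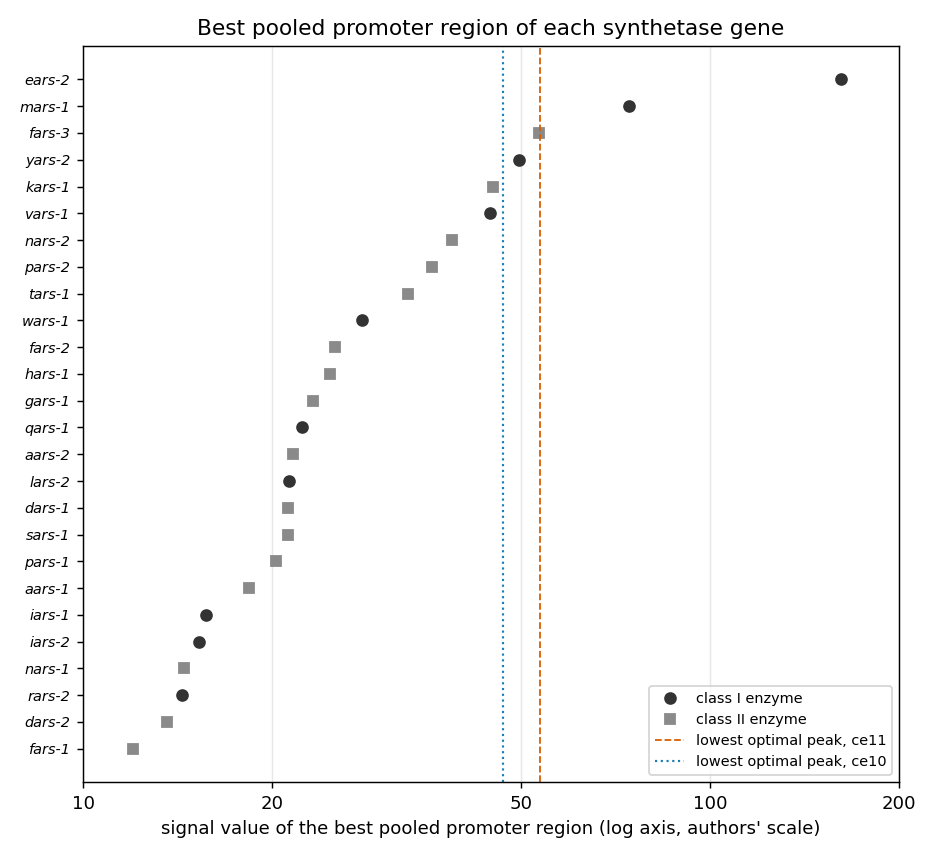
Signal value of the best pooled promoter region (log axis) of each of the 26 synthetase genes with one, from highest to lowest, by enzyme class. ears-2 at 161.6 and mars-1 at 74.1 lie right of the dashed line, the lowest optimal ce11 value of 53.5, and fars-3 at 53.4 lies just left of it; the dotted line is the lowest optimal value on the ce10 build, 46.8.

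The strongest region of the family lay at ears-2, whose product RefSeq names as mitochondrial glutamyl-tRNA synthetase (EARS2). Its peak at chrIV:390368-390597 had a pooled signal of 161.6 and ranked 61 of 22106. The signal was 89.1 in replicate 1 (rank 55) and 62.5 in replicate 2 (rank 136), so the peak was among the strongest of both libraries. The summit lay 19 bp upstream of the ears-2 start, and at 16 and 9 bp upstream in replicates 1 and 2. The same summit lies in the promoter window of uncp-18, which is read from the opposite strand and starts 92 bp from ears-2, so the peak cannot be given to 1 of the 2 genes, although the ears-2 start is the nearest. The 230 bp region was narrower than the other 25 pooled regions of the family, each 430 bp wide, and 45% of the bases within 100 bp of the summit were G or C.

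The other optimal peak lay at mars-1, which encodes cytoplasmic methionyl-tRNA synthetase. The region at chrIV:11635676-11636105 had a pooled signal of 74.1 and rank 596. Its signal was 52.4 in replicate 1 (rank 322) and 23.6 in replicate 2 (rank 1486), so replicate 2 alone would not have placed it among its best 1168 regions. The summit was 404 bp upstream of the nearest mars-1 start. The TAAACA string printed above is centred 58 bp from the summit, on the side of the gene. The window of F58B3.6, on the opposite strand, also holds this summit. Around this summit 29% of bases were G or C.

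Directly below the threshold stood fars-3, which encodes the beta subunit of phenylalanyl-tRNA synthetase. Its region at chrII:8464328-8464757 had a pooled signal of 53.38, and the lowest optimal peak had 53.50, so fars-3 ranked 1175, 7 places below the end of the optimal list. It was more even between libraries than ears-2 or mars-1 in rank, with a signal of 30.6 in replicate 1 (rank 1145) and 26.6 in replicate 2 (rank 1161), which put it among the best 1168 of both. Only ears-2 and fars-3 of the family met that criterion in both libraries, 6.25% of 32 beside 3.79% of all genes. The summit lay 305 bp upstream of the start, and a reverse TAAACA string was centred 34 bp further upstream, as printed. The gene lies 336 bp behind zyg-9, a gene for a microtubule-binding protein on the same strand, whose own promoter region had a signal of 45.6.

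The gene of the next rank, yars-2, a tyrosyl-tRNA synthetase gene, was less even than those 3. Its region at chrIV:4712407-4712836 had a pooled signal of 49.5 (rank 1349), with 38.6 in replicate 1 (rank 708) and 13 in replicate 2 (rank 5825). The authors' optimal list on the ce10 build reaches down to a signal of 46.8. Applied to the pooled ce11 list, a setting chosen after the data were seen, that value takes in fars-3 and yars-2, giving 4 synthetase genes, beside 6.46% of all genes. Whether signal values on the ce10 and ce11 builds share a scale was not tested. The summits of the pooled and both replicate lists fell 2, 3 and 10 bp downstream of the start.

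The lysyl-tRNA synthetase gene kars-1 followed with a pooled signal of 45 (rank 1601), and its signals of 23.1 in replicate 1 and 19.7 in replicate 2 had ranks 1981 and 2199. The valyl-tRNA synthetase gene vars-1 had a pooled signal of 44.5 (rank 1631), with 22.8 in replicate 1 and 18.4 in replicate 2. Its summit lay 35 bp upstream of its start, and the oocyte zinc-finger gene oma-2 ends 197 bp upstream on the same strand. Then came nars-2, an asparaginyl enzyme by its name, with a pooled signal of 38.8. This gene had a signal of 15.6 in replicate 1 (rank 4507) and 23.3 in replicate 2 (rank 1537), the reverse of the order of ranks seen at mars-1 and yars-2. The 6 genes of highest signal, ears-2 to vars-1, all had the highest −log10 q-value that the authors' pooled list holds, 3.56, as did the best regions of 7.56% of all genes. The next members by pooled signal, nars-2, pars-2 and tars-1, had values of 3.13, 3.19 and 2.45 in the pooled list, and the members after them had lower values. The −log10 q-value was 1.54 at wars-1, 1.13 at fars-2 and lower still at each member of lower signal, down to 0.0294 at fars-1.

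The other members had pooled signals of 36 or less. The prolyl gene pars-2 had 36, the threonyl gene tars-1 had 33, the tryptophanyl gene wars-1 had 27.8, and fars-2, for another phenylalanyl enzyme, had 25.2. The pooled signal of the cytoplasmic alanyl gene aars-2 was 21.6, that of the glycyl gene gars-1 was 23.3, that of the histidyl gene hars-1 was 24.8 and that of the glutaminyl gene qars-1 was 22.3. Values from 21.3 to 18.4 belonged to lars-2, dars-1, sars-1, pars-1 and aars-1, for leucyl, aspartyl, seryl, prolyl and alanyl enzymes. The weakest were iars-1 (15.7), iars-2 (15.3), nars-1 (14.5), rars-2 (14.4), dars-2 (13.6) and fars-1 (12), where the lowest value of the whole pooled list is 11.6. Of these 6, rars-2 and fars-1 had no candidate in either replicate list, iars-1 had none in replicate 1, and iars-2 and nars-1 had none in replicate 2.

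The pooled list had no summit in the window of 6 synthetase genes, namely cars-1, ears-1, lars-1, rars-1, sars-2 and yars-1. For ears-1, sars-2 and yars-1 the replicate lists had none either. The cysteinyl gene cars-1 had a weak candidate in replicate 1 only (signal 11.8, rank 8640), and the leucyl gene lars-1 one in replicate 2 only (9.06, rank 13820). The arginyl gene rars-1 is missing through the edge of the window: its pooled region had a signal of 48.3 and rank 1408, and its summit was at -1001 bp from the start, just outside. In the replicates the summits were 994 and 979 bp upstream, with a signal of 26.3 in replicate 1 (rank 1535) and 18 in replicate 2 (rank 2673). The gene rpb-8, for a subunit of RNA polymerases, ends 66 bp upstream of rars-1 on the same strand, and 48.3 is also the signal of its own promoter region. A weak region also reached into the window of ears-1, with a signal of 14.6 and a summit 238 bp downstream of the start.

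The replicates gave the members a similar order. For the 22 synthetase genes found in both replicates the rank correlation (Spearman's rho) between their signals was 0.76, and for 4531 genes of the whole genome it was 0.69, a description over genes that share the same 2 libraries and control. In 15 of the 22 the replicate summits lay within 100 bp of each other, 68.2%, beside 53.4% of the 4531 genes, and the median gap was 57 bp, beside 87 bp over all genes. The greatest distance within the family was 1534 bp, which means that the replicate lists can place the best region of a gene at different sites. The aspartyl gene dars-1 stood at the 54.2 percentile in replicate 1 and the 11.4 percentile in replicate 2, and the prolyl gene pars-1 at 18.7 and 58.3.

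**Figure D3:**
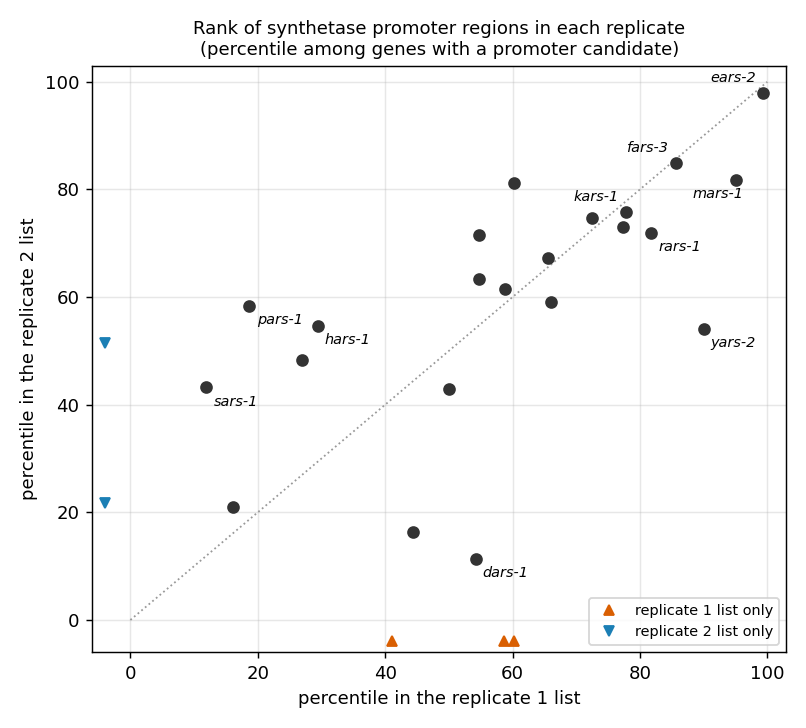
Percentile of the best promoter region in the replicate 1 list (x axis) and replicate 2 list (y axis), among all genes with a promoter candidate in that list; circles are the 22 synthetase genes found in both, triangles those in 1 list only. ears-2 lies at the upper right (99.3 and 98), and yars-2 (90 and 54.1) and dars-1 (54.2 and 11.4) lie far below the dotted line of equal percentiles.

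Most summits lay upstream of the start, in a window that reaches farther upstream than downstream. In the pooled list 19 of 26 were upstream of the nearest start, 73.1%, beside 82.2% of all genes with a candidate, and 7 were downstream, with a median distance of 277.0 bp, beside 246.0 bp over all those genes. The strongest regions followed no single pattern of position. The summits of ears-2, yars-2 and vars-1 lay within 35 bp of the start, whereas those of mars-1, fars-3 and kars-1 lay 404, 305 and 309 bp upstream. At pars-1 the summit was 940 bp upstream, the farthest of the 26 pooled summits in the window. The replicate 2 summit of qars-1 lay 482 bp downstream of the nearest start, within the upstream window of another of its 4 starts.

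**Figure D4:**
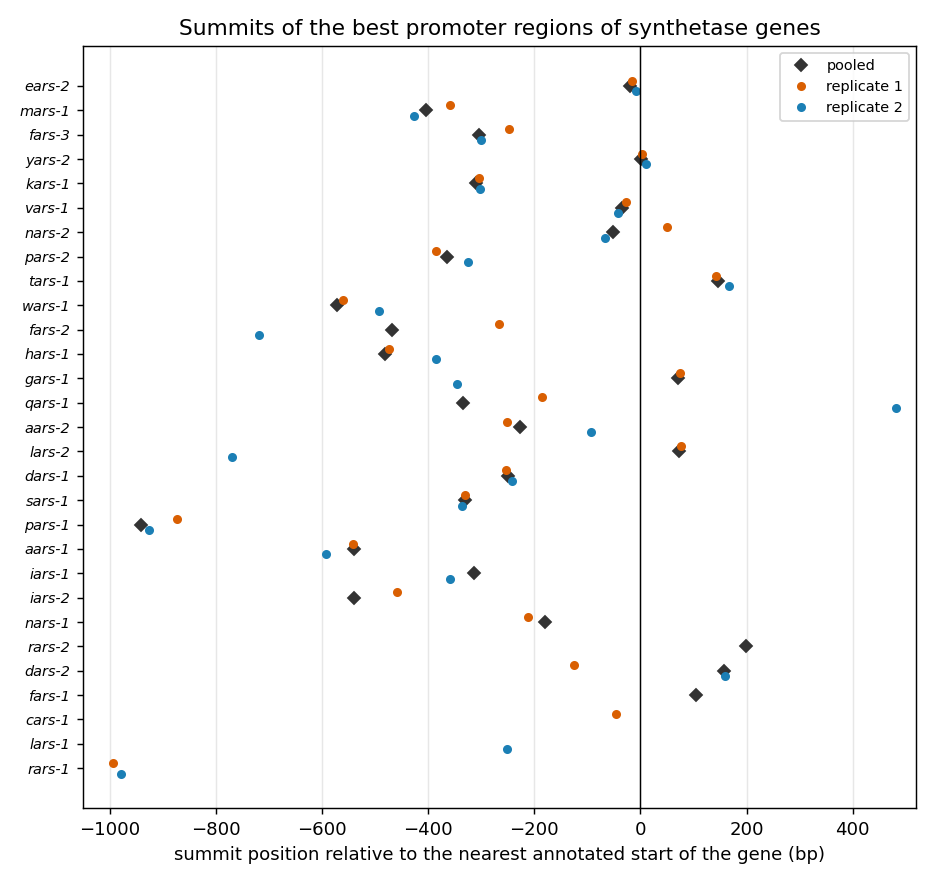
Position of the summit of the best promoter region relative to the nearest annotated start (bp, negative upstream), for the 29 synthetase genes with a candidate in at least 1 list, ordered by pooled signal; diamonds are pooled and circles the replicates. Pooled and replicate summits nearly coincide at ears-2, yars-2 and kars-1 and lie apart at lars-2, fars-2 and qars-1.

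Some of these regions also lay in the promoter windows of neighbouring genes. For 11 of the 26 genes the summit was shared in this way with another protein-coding gene, and for 5 (hars-1, dars-1, sars-1, aars-1 and iars-2) the start of the neighbour was nearer. No share over all genes is given here for either count, so neither can be called particular to the family. At dars-1 the summit lay 65 bp from the start of ctr-9, a gene of the PAF1 elongation complex, and at hars-1 20 bp from that of T11G6.2. An opposite-strand start lay within 1000 bp upstream of 12 synthetase genes, 37.5%, and of 18.7% of all genes. A protein-coding gene of the same strand ended within 500 bp upstream of 11, 34.4%, beside 18.1% of all genes. In worms such genes can be transcribed together as an operon, from the promoter of the first gene. None of these 11 upstream neighbours had an optimal peak in its own window (0 of 11, which allows a share of up to 27.3%), beside 9.41% of the upstream neighbours of all 3615 genes so placed. A pooled candidate was present at 8 of the 11 neighbours, 72.7%, beside 48.4%. Of the 11 synthetase genes themselves 9 had a pooled candidate, 81.8%, beside 49.1% of the 3615 genes. An optimal peak was present at 0 of the 11, beside 5.92%.

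Both optimal peaks belonged to class I enzymes, 2 of 15 genes or 13.3% (3.74–37.9), and 0 of 17 class II genes had one, which allows a share of up to 17.6%. Candidates, in contrast, were present at 10 of 15 class I genes, 66.7% (41.7–84.8), and at 16 of 17 class II genes, 94.1% (73–99). The median pooled signal was 25.1 in class I and 22.4 in class II. These differences were not tested, and the intervals overlap. RefSeq product names place 10 members in the cytoplasm, 8 of them with a pooled candidate and 1, mars-1, with an optimal peak, and 4 in mitochondria, all with a candidate and 1, ears-2, with an optimal peak. The product names of the other 18 give no compartment; of these 14 had a candidate and 0 an optimal peak.

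Strings recognised by forkhead and other factors were counted at the summits, and the shares are given without a test. In windows of 200 bp centred on the pooled summit, searched on both strands, TAAACA occurred at 4 of 26 synthetase genes (mars-1, fars-3, lars-2 and nars-1), 15.4%, beside 16.5% of 6165 pooled and 15.8% of 736 optimal promoter windows. The longer GTAAACA, which contains TAAACA, occurred at nars-1 alone (3.85%, beside 2.79% of pooled windows). The control string ACAAAT, which is the forkhead core read backwards, occurred at 7 genes, 26.9%, beside 22.7%. Strings of the E2F type, which were TTCCCGC as well as TTCGCGC and the variants TTGCCGC along with TTGGCGC, occurred at pars-2 and aars-2, 7.69%, beside 12.9% of pooled windows and 29.2% of optimal windows. Neither ears-2 nor mars-1 had one. The string TGATAA, which factors of the GATA family recognise, occurred at tars-1, hars-1, dars-1 and rars-2 (15.4%, beside 15.2%).

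The ATF4-type string TGATGNAA occurred at hars-1 alone, 3.85%, beside 4.53% of pooled windows, and CACGTG, the E-box, at 0 of 26, which allows a share of up to 11.5%, beside 3.58%. A match of letters is a description of the window and not evidence of a bound site. Median GC content was 32.8% in the synthetase windows, 36% in all pooled windows and 39% in the optimal ones.

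No annotated tRNA gene lay within 5000 bp of any of the 26 synthetase summits (0 of 26, up to 11.5%), beside 4.19% of all genes with a candidate, and the nearest lay 46642 bp from the dars-2 summit.

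Genes that make, modify or sense tRNA were described for comparison from a list of 33 symbols, of which 28 were in the annotation. The list includes glp-4, itself a valyl-tRNA synthetase gene whose name the rule does not take in. A pooled candidate was present at 15 of 28, 53.6% (35.8–70.5), and an optimal peak at 3, 10.7% (3.71–27.2), beside the 36.4% and 5.29% of all genes. Without glp-4 the counts were 14 of 27, 51.9%, and 3 of 27, 11.1%. The count of 3 fell to 1 among the upper 584 optimal peaks and to 1 with a window of 500 bp upstream. The 3 were elpc-4 (chrIV:8015837-8016266, pooled signal 83.7), for a subunit of the Elongator complex that modifies wobble uridines; rtcb-1 (chrI:9393617-9394046, 71.3), the tRNA ligase that joins the exons of spliced tRNAs; and pus-1 (chrV:16794952-16795381, 61.7), a pseudouridine synthase. The elpc-4 summit lay 942 bp from its start, nearer to the start of C26B2.7, that of rtcb-1 lay 737 bp from its start and that of pus-1 215 bp. Signals of these genes in replicates 1 and 2 were 49.3 and 35.2 for elpc-4, 46.6 and 22 for rtcb-1, and 28.9 and 33.7 for pus-1. The worm genes gcn-1, gcn-2 and atf-4, whose mammalian counterparts act in the response to uncharged tRNA, had no candidate in any of the 3 lists. A candidate in at least 1 list was present at 21 of the 28 genes, 75%, so other genes of the 28 had none either. Of all genes 48.9% had a candidate in at least 1 list, and atf-4 lies on chromosome X, where 24.3% had a pooled candidate. The polymerase III gene rpc-2 had a pooled signal of 46.1, and rpc-1, for the largest subunit of that polymerase, 17.3. In the replicate lists rpc-1 had no candidate in replicate 1 and a signal of 8.12 in replicate 2 (rank 17397). No pooled candidate was present at rpc-11, which had a signal of 11 in replicate 2 (rank 8906) and no candidate in replicate 1.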

How the data were processed

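UNC-130::GFP was profiled by ChIP-seq in 2 biological replicates, numbered as in the labels. The authors made each region list from replicate alignments and 1 control file, per the deposited listings. Which aligner, peak caller and irreproducible discovery rate threshold they used is not given in the sources used here. Signal values are as deposited, on an unstated scale, and served for rank within a list, apart from the ce10 threshold applied to the ce11 list. The −log10 q-value is also as deposited. A script found that the optimal ce11 list consists of every pooled region from a signal of 53.50 upwards. Columns without a sample or pool numbered 0.

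Windows and gene names came from Ensembl release 115 (WBcel235, the assembly of ce11), product names from RefSeq, computed with Python 3.11.15, NumPy 2.4.6 and SciPy 1.17.1. Coordinates are 1-based; the ce10 lists were used only for a threshold. Products were found for all 32 genes. The assignment was tested on simulated regions. Members, lists and alternatives were chosen with earlier results of these data known. Named were every member, with full values for those with an optimal peak and the next by signal, and list genes with an optimal peak. The genes rpc-1, rpc-2, rpc-11, gcn-1, gcn-2 and atf-4 and fuller values for other members were chosen after values were seen. No test was made, since 1 group of 2 replicates has no comparison and set tests on a chosen list were not used. Zero counts allow up to 3 counts of the total. Alternatives were each replicate alone, the upper 584 optimal peaks, windows of 500 and 2000 bp, other string windows and distances, and, added after the data were seen, the ce10 threshold.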

Additional observations from a re-analysis of the deposited data

How the results depend on the processing

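The count of synthetase genes with an optimal peak was 2 with windows of 500 or 2000 bp upstream, with the nearest start only and with any overlap of the region. It was 1 (ears-2) among the 584 optimal peaks of highest signal. It was 4 (ears-2, mars-1, fars-3 and yars-2, 6.46% of all genes) at the lowest value of the 1485 optimal ce10 peaks, 46.8, a setting chosen after the data were seen. Leaving out 1 replicate gave 2 genes (ears-2 and fars-3) on replicate 2 and 4 (with mars-1 and yars-2) on replicate 1, beside 5.22% and 5.11% of all genes. The cause of these differences was not tested. Pooled candidates numbered 23 with 500 bp upstream, 26 with 1000 bp and 27 with 2000 bp. The replicate lists held candidates at 25 genes in replicate 1 and at 24 in replicate 2. Shares over all genes are given here for the 1000 bp window only, so counts with other windows have no background beside them. The median percentile of 54.2 was 58.8 to 60.3 on single replicates and 59.7 with 2000 bp upstream. Of the other tRNA genes, 3 had an optimal peak; the count was 1 among the upper 584 peaks and with 500 bp upstream, 2 on either replicate alone and with the nearest start only, 3 at the ce10 value, and 4 with 2000 bp upstream and with any overlap. The counts of strings, all 11 or less of 26 genes, changed with the window width and are descriptive only. The median summit distance was 252.0 to 330.0 bp on single replicates, and the tRNA count was 0 at every distance. No paired analysis was possible because there is 1 group and nothing to pair its replicates with. Depth is unknown.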

Other observations

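Synthetase genes that the naming rule leaves out were also measured. K03B4.1, named by RefSeq as a seryl-tRNA synthetase, had a pooled signal of 41.3 (rank 1828), with 23.9 in replicate 1 and 23.6 in replicate 2, and its summit lay 143 bp downstream of the start. The valyl enzyme gene glp-4, known for its requirement in the germline, had a pooled signal of 22.5, with 11 in replicate 1 and no candidate in replicate 2, and its summit was nearer to the start of Y87G2A.16. The gene prx-10, which RefSeq gives a mitochondrial tryptophanyl-tRNA ligase product besides a peroxisome factor, had 22.7. Y105E8A.20, which RefSeq calls mars-2, the mitochondrial methionyl enzyme, ends 110 bp upstream of yars-1, and neither gene had a candidate in any list.

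Optimal peaks inside the gene but outside its promoter windows were found at 2 of 32 synthetase genes, 6.25% (Wilson interval 1.73–20.1), beside 1.1% of all genes. The median gene length was 3576 bp for the synthetase genes and 2027 bp for all genes, and the part of length in this count was not tested. At fars-1 the peak at chrI:6212589-6213018 (signal 81.3, rank 500) lay 1412 bp downstream of the nearest of the 4 annotated starts. The nearest protein-coding start was that of another gene, mrpl-23, 919 bp from the summit. The snoRNA gene T08B2.13, the non-coding RNA gene T08B2.14 and a pseudogene are annotated there within 200 bp. At iars-2 the peak at chrI:10184385-10184493 (signal 67.9, rank 742) lay 4250 bp downstream of the start. The neighbouring gene clec-87 is also annotated there within 200 bp, and its start lay 1034 bp from the summit.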
